A study of Mus musculus with 10 samples.

Results

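The question was what a PD-1 antibody adds to a CDK4/6 inhibitor in mouse ovarian tumours. The 3 tumour libraries from mice given both agents (the combination) were compared, gene by gene, with the 3 libraries from mice given the inhibitor alone. These 6 libraries were taken whole, by their treatment labels, from a series of 10. The other 4 libraries, 2 from mice given PBS and 2 from mice given the antibody alone, enter the fit for its estimate of spread and are shown beside the results. All tumours came from an ovarian cancer model set up in mice labelled wild type, and each library holds the bulk mRNA of tumour tissue. The inhibitor is common to both groups compared, so the comparison shows the antibody on top of it and not the inhibitor itself. Combination replicates 2 and 3 carry antibody numbers in their treatment text that differ from that of replicate 1, and were grouped by their titles. The labels used here give no age, dose, schedule, injected cell line or tumour site, and do not say whether libraries came from separate animals, so every p-value measures the spread between these samples, which may be technical.

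CDK4 and CDK6, bound to D-type cyclins, phosphorylate the retinoblastoma protein and so release E2F factors that drive DNA replication genes; CDK4/6 inhibitors hold this step closed. PD-1, encoded by Pdcd1, is an inhibitory receptor on activated T cells whose ligand PD-L1, encoded by Cd274, is made by tumour and myeloid cells. Blocking PD-1 is known to restore T cell killing and interferon gamma release, and interferon gamma in turn induces the genes of antigen presentation and the chemokines that draw further T cells into a tumour.

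The libraries differed in tissue content within both groups. The 12 genes of a skeletal muscle list, such as Acta1, Ckm and Myh4, took 10.4%, 9.24% and 0.00153% of reads in inhibitor replicates 1 to 3 and 10.3%, 0.186% and 0.706% in combination replicates 1 to 3. Inhibitor replicates 1 and 2 and combination replicate 1 are therefore called muscle-rich below, and inhibitor replicate 3 and combination replicates 2 and 3 muscle-poor. The 9 genes of an exocrine pancreas list took 0.00112%, 0.000953% and 0.052% of reads in the inhibitor libraries and 0.000933%, 0.147% and 0.546% in the combination libraries, so all 3 muscle-poor libraries carried more pancreas RNA than the muscle-rich ones. Across tested genes, log2 levels correlated at 0.979 between inhibitor replicates 1 and 2 and at 0.975 between combination replicates 2 and 3, but at 0.850 between inhibitor replicates 1 and 3 and at 0.892 between combination replicates 1 and 2. Combination replicate 1 correlated at 0.962 and 0.965 with the muscle-rich inhibitor libraries, above its correlation with either of the other combination libraries. Total reads were 27030157, 25188785 and 28781315 for the inhibitor and 29586539, 33619415 and 36260856 for the combination, so each combination library was deeper than each inhibitor library. Of the markers of the labelled tumour type, Krt19, a keratin, stood at 136, 140.5 and 128 RPKM with the inhibitor and 161, 147 and 169 with the combination, and the mesothelial gene Upk3b at 34.1, 37.2 and 28.5 and 36, 55.6 and 59.1 RPKM, while Pax8 was too low in these libraries to be tested. RPKM, the deposited unit, is a read count divided by gene length and by the total of the library.

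**Figure D1:**
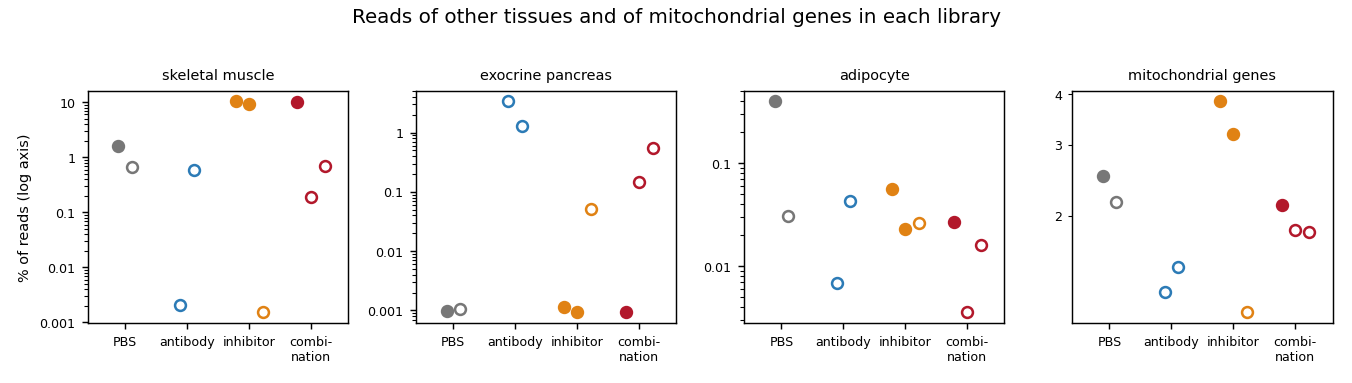
Percent of reads (log axes) taken by 3 tissue marker lists and by the mitochondrially encoded genes in each of the 10 libraries, in replicate order within a group; filled points are libraries with more than 1% of reads in the skeletal muscle list. Inhibitor replicates 1 and 2 and combination replicate 1 lie between 9.24% and 10.4% muscle reads, and inhibitor replicate 3 at 0.00153%.

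No gene passed the test for combination against inhibitor. Of 19368 genes tested, 0% were called higher and 0% lower (limma on log2(RPKM + 0.5), Benjamini-Hochberg adjusted p under 0.05), and the smallest adjusted p was 0.619. At an unadjusted p under 0.05 there were 1556 genes, and limma with voom on the whole reads recovered from the RPKM values also called 0, with 1635 genes at an unadjusted p under 0.05. The values below are therefore levels and differences in these 6 libraries, none of them past the threshold. Standard errors (SE, n = 3 libraries in each group compared) are on the log2(RPKM + 0.5) scale. They use the moderated spread of the fit to all 10 libraries. As a description, 7.84% of tested genes had all 3 combination libraries above all 3 inhibitor libraries, 3.01% had all 3 below, and 68.6% had a difference above 0. The median difference of all tested genes was 0.15, and it depended on scaling: with quantile-normalised values it was -0.03 and 45.5% of genes lay above 0, and with libraries rescaled by the median ratio 50.0% did. Gene list medians are to be read against that shift of 0.15. Members without overlap are to be read against the shares of 7.84% above and 3.01% below.

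The genes with the lowest p had narrow spreads and moderate differences. Among the genes that stood higher, Ptpn18, a protein tyrosine phosphatase gene (chromosome 1, 34459762 to 34475733, plus strand), had 0.849, 0.96 and 1.05 RPKM in inhibitor replicates 1 to 3 and 2.4, 2.78 and 2.52 in combination replicates 1 to 3, a difference of 1.08 ± 0.17 (SE). All 3 combination libraries, muscle-rich or not, lay within a narrow band above the inhibitor libraries. Lst1, a leukocyte transcript of the MHC region, had 5.44, 11.7 and 8.71 RPKM with the inhibitor and 21.6, 36.1 and 35.6 with the combination, a difference of 1.82 ± 0.35. The lectin receptor gene Clec4a3 had 3.04, 2.87 and 4.27 and 6.8, 7.91 and 7.59 RPKM, and Lrmp, a lymphoid membrane protein gene, 2.51, 2.68 and 4.34 and 6.63, 11.9 and 11 RPKM. The other named genes at this end were the class II gene H2-Ab1, the monocyte chemokine gene Ccl8, the inflammasome receptor gene Naip6, the adhesion gene Nectin4, the LIM protein gene Csrp1 and the light chain segment Igkv5-45. Igkv5-45 reached 24.7, 4.71 and 3.29 RPKM in the combination libraries against 0, 0.309 and 0.361 with the inhibitor, a variable gene whose reads near-identical segments can share.

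At the other end, Tubb3, the class III beta tubulin gene (chromosome 8, 123411424 to 123422015, plus strand), had 5.88, 5.33 and 5.51 RPKM in the inhibitor libraries and 2.55, 2.42 and 2.75 in the combination libraries. The 2 groups were apart and each tight, with a difference of -0.98 ± 0.14. Since the groups did not overlap, the difference had to be negative within the muscle-rich and within the muscle-poor libraries too. Its sign there adds nothing to the values above. Mgarp, a mitochondrial glutamic acid-rich protein gene, had 5.85, 4.82 and 6.59 and 3.17, 1.41 and 2.4 RPKM, and Fam162a, a gene of the hypoxia response, 94.4, 86.7 and 101 and 63.4, 38.1 and 44.7 RPKM. Per1, a circadian clock gene, had 15.9, 22.9 and 17.1 RPKM with the inhibitor and 3.7, 5.31 and 7.84 with the combination, a difference of -1.69 ± 0.45. It also varied within the PBS group, at 24.6 and 6.48 RPKM, beside 6.07 and 6.93 in the antibody libraries. The ubiquitin ligase gene Mid1, Medag, the translation factor gene Eif5b and 3 small RNA gene models (Mir5101, Mir6916 and n-R5s39) made up the rest of the 10 that stood lower. Reads over such short models in an mRNA library need not come from the mature small RNA.

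**Figure D2:**
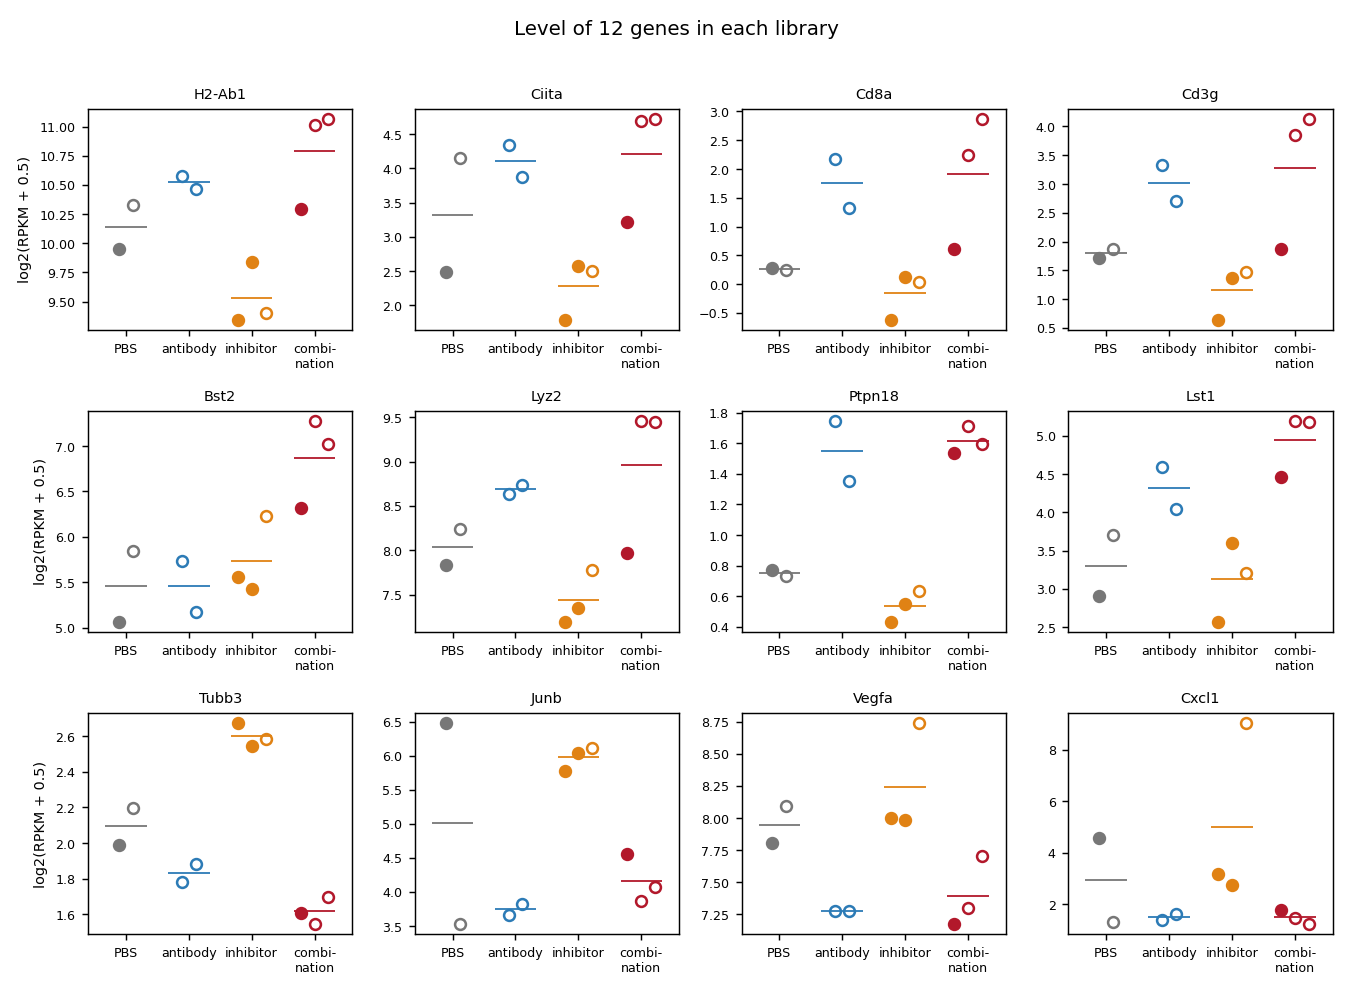
Level of 12 genes as log2(RPKM + 0.5) in each library, in replicate order; horizontal lines are group means and filled points are libraries with more than 1% muscle reads. For Ptpn18, Lst1, Tubb3, Junb and Vegfa the 3 combination and 3 inhibitor libraries do not overlap, while for Cxcl1 inhibitor replicate 3 stands far above all others.

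T cell genes stood higher with the combination in all 19 members of their list, with a median difference of 1.37. Only Cd3g, 1 of the 19, had no overlap between the groups, beside 7.84% of all tested genes. Cd3g, a chain of the CD3 signalling complex, had 1.06, 2.09 and 2.26 RPKM in the inhibitor libraries and 3.15, 13.8 and 17 in the combination libraries. Combination replicate 1 sat just above the highest inhibitor library and the other 2 combination libraries several-fold above it, giving 2.12 ± 0.55. Cd3e had 0.508, 0.934 and 1.73 and 1.24, 5.71 and 6.76 RPKM, and the kinase gene Lck of the T cell receptor 0.657, 1.29 and 3.89 and 2.42, 11.7 and 12.3 RPKM. For both, inhibitor replicate 3 lay above combination replicate 1. The co-receptor gene Cd4 had 0.688, 1.06 and 6.52 RPKM with the inhibitor and 1.12, 13.3 and 14.4 with the combination, so its groups overlapped too. The mean level of the list ran 0.40, 0.80 and 1.69 across the inhibitor replicates and 1.06, 2.81 and 2.89 across the combination replicates on the log2 scale, beside 1.09 and 1.52 in the PBS libraries and 2.42 and 1.99 in the antibody libraries. In bulk RNA more cells of a type and more RNA per cell cannot be told apart.

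CD8 and cytotoxic genes stood higher in 14 of 14 tested members, with a median of 1.41, or 2.23 without combination replicate 1. Cd8a, a CD8 co-receptor chain (chromosome 6, 71373427 to 71379173, plus strand), had 0.153, 0.589 and 0.525 RPKM with the inhibitor and 1.02, 4.26 and 6.79 with the combination, with no overlap and a difference of 2.06 ± 0.54. Ifng, which encodes interferon gamma, was listed at 0, 0 and 0.0576 RPKM in the inhibitor libraries and 0.112, 1.03 and 1.49 in the combination libraries, and Tbx21, the T-bet gene of type 1 T cells, at 0.0892, 0.0957 and 0.335 and 0.489, 1.39 and 1.31 RPKM. These 3, of 14 tested, were the members whose groups did not overlap, beside 7.84% of all tested genes. For Ifng this rests on few reads, with 0.0576 RPKM in inhibitor replicate 3 and 0.112 in combination replicate 1. Gzmb, the granzyme B gene, had 0.365, 0.224 and 3.87 and 0.524, 4.24 and 6.81 RPKM, so that inhibitor replicate 3 lay well above combination replicate 1. The cathepsin gene Ctsw had 0.541, 0.741 and 2.31 RPKM with the inhibitor and 1.87, 7.39 and 8.24 with the combination, and the other CD8 chain gene, Cd8b1, 0.599, 0.803 and 2.18 and 1.85, 8.77 and 13.1 RPKM. All 5 tested natural killer receptor genes also stood higher, with a median of 0.90. Of these only Klri2 did not overlap, at 0.0189, 0.0406 and 0.0888 RPKM with the inhibitor and 0.155, 0.677 and 0.881 with the combination. Klri2 was near 0 RPKM in the inhibitor libraries.

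The target of the antibody and its ligand did not separate the groups. Pdcd1 had 1.02, 1.5 and 6.89 RPKM in the inhibitor libraries and 1.65, 9.83 and 13.6 in the combination libraries, a difference of 1.27 ± 0.81, and Cd274 had 2.31, 4.46 and 42.8 and 8.28, 48.4 and 59.5 RPKM, a difference of 1.81 ± 1.12. In both, the muscle-poor libraries were high and the muscle-rich ones low in either group. Of 16 tested checkpoint genes, 14 stood higher with a median of 1.09 and none had all 3 libraries above. Vsir, which encodes the checkpoint protein VISTA, had 3.31, 3.54 and 7.03 and 6.75, 11.9 and 12.1 RPKM. Ctla4, the receptor that competes for CD28 ligands, was the member that went furthest the other way after Pvr, with 1.44, 3.56 and 9.01 RPKM with the inhibitor and 0.841, 5.78 and 5.04 with the combination. Regulatory T cell genes had a smaller median of 0.40, which was 0.13 without inhibitor replicate 1 and 0.74 without combination replicate 1. Within the muscle-rich libraries and within the muscle-poor ones their median lay close to 0, with 5 of 10 members higher in each. Foxp3, their defining factor, had 2.93, 2.89 and 3.86 and 2.73, 6.22 and 5.08 RPKM, and Il10 had 0.424, 1.27 and 2.15 and 0.361, 0.954 and 0.547 RPKM.

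B cell and plasma cell genes, part of the lymphoid aggregates named in the title of the series, followed the muscle-poor libraries. B cell genes stood higher in 14 of 15 tested members with a median of 0.98 and no member without overlap. That median was 0.51 without combination replicate 2 and 1.68 without combination replicate 1, and within the muscle-rich libraries it was 0.23, with 10 of 15 higher. Cd79a, a chain of the B cell receptor, had 0.127, 0.218 and 2.29 RPKM with the inhibitor and 0.835, 6.39 and 4.62 with the combination. Ms4a1, the CD20 gene, was listed at 0, 0 and 0.578 and 0.0109, 1.87 and 0.972 RPKM. Plasma cell and immunoglobulin genes stood higher in 15 of 16 members with a median of 0.78, which was 0.40 without inhibitor replicate 1 and 1.32 without combination replicate 1. Jchain, the joining chain of secreted IgA and IgM, had 16.6, 29 and 61.1 and 51.1, 149 and 138 RPKM, and the light chain constant gene Iglc2, without overlap, 4.41, 11.2 and 10.8 and 15.2, 30.8 and 28.7 RPKM. Iglc2 differed the other way between antibody and PBS (-0.67), with 37 and 36.3 RPKM in PBS libraries and 21.3 and 24.6 in antibody libraries.

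Lymphoid organising signals gave a mixed picture. Cxcl13, the chemokine that draws B cells into follicles, had 0.901, 2.49 and 44.8 RPKM in the inhibitor libraries and 3.41, 3.47 and 6.81 in the combination libraries, so its highest value was in inhibitor replicate 3. Ccl21a, a chemokine for naive T cells, had 27.3, 16.5 and 3.63 and 10.6, 8.82 and 24.8 RPKM, and Ccl19 was under the level for testing at 0, 0.0916 and 0.160 RPKM with the inhibitor and 0.0390, 0.618 and 0.350 with the combination. The lymphotoxin genes, which signal to stroma in lymphoid tissue, stood higher: Lta had 0.214, 0.0574 and 0.301 RPKM with the inhibitor and 0.342, 1.03 and 0.678 with the combination, without overlap, and Ltb 0.488, 0.524 and 2.38 and 1.25, 7.24 and 6.15 RPKM. Their receptor gene Ltbr was among 3 members of the lymphotoxin and BAFF list that stood lower, and its 12 others stood higher (median 0.67). High endothelial venule genes had a median of 0.24, with 7 of 10 higher, a share near that of all tested genes. Their median was -0.32 in the muscle-poor libraries, with 3 of 10 higher, and -0.02 without inhibitor replicate 1. Germinal centre and follicular helper genes had a median of 0.54, with 7 of 8 higher. Cd40, the B cell and dendritic cell co-stimulatory receptor, led the latter list at 0.869, 1.03 and 1.63 and 1.58, 4.69 and 4.73 RPKM.

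The 4 genes of the CXCR3 chemokine axis stood higher in the combination libraries, in the muscle-rich and in the muscle-poor ones, whereas monocyte chemokines as a list did so in the muscle-rich ones alone. Cxcl9, a ligand of CXCR3 on effector T cells, had 10.2, 17.9 and 19.6 RPKM with the inhibitor and 19.8, 88.2 and 91.6 with the combination, and Cxcr3 0.214, 0.367 and 1.1 and 1.17, 3.13 and 2.15 RPKM. Neither overlapped, although combination replicate 1 was only just above inhibitor replicate 3 in both. Cxcl10, a further CXCR3 ligand, had 1.25, 2.36 and 5.77 and 2.82, 10.4 and 11.7 RPKM. Ccl8, a monocyte chemokine, had 16.9, 10.7 and 10.9 and 23.2, 45.3 and 39.4 RPKM, Ccl12 1.93, 3.99 and 3.49 and 5.92, 10 and 9.19 RPKM and the monocyte receptor gene Ccr2 0.733, 0.693 and 1.51 and 2.04, 2.26 and 2.72 RPKM. These 3, of 11 tested, were the members of the monocyte list whose groups did not overlap, beside 7.84% of all tested genes. The median of all 11 was 0.72, but it was 0.96 in the muscle-rich libraries, with 10 of 11 higher, and -0.15 in the muscle-poor ones, with 4 of 11 higher. It was 0.33 without inhibitor replicate 1 and 1.39 without inhibitor replicate 3. Ccl2, the monocyte chemokine MCP-1, had 1.3, 1.81 and 29.6 RPKM with the inhibitor and 4.13, 5.41 and 5.65 with the combination, highest in inhibitor replicate 3. Ccl5, a T cell chemokine, had 0.347, 1.49 and 19.8 RPKM with the inhibitor and 2.46, 20.3 and 27.1 with the combination, and overlapped.

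Interferon gamma response genes had the highest median of the immune lists described here, 1.57, with all 19 tested members higher. Ciita, the master activator of class II genes (chromosome 16, 10488178 to 10527564, plus strand), had 2.96, 5.44 and 5.16 RPKM in the inhibitor libraries and 8.84, 25.3 and 25.8 in the combination libraries, a difference of 1.92 ± 0.53. The interferon-inducible GTPase genes Gbp4 and Iigp1 had 10.3, 17 and 22 and 15.3, 25.4 and 32.1 RPKM with the inhibitor against 23.2, 68.5 and 80.7 and 37.1, 93.1 and 103 with the combination. These 3, with Tgtp2, were the 4 of 19 without overlap, beside 7.84% of all tested genes. Tgtp2 has a near-identical neighbour, Tgtp1, with which reads may be shared. Irf8, an interferon-induced factor of myeloid cells, had 2.4, 2.79 and 6.06 and 5.58, 15.5 and 15.2 RPKM. All 19 members stood higher within the muscle-rich libraries and within the muscle-poor ones, where 35% of all tested genes did so in both.

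Type I interferon response genes stood higher in 22 of 22 members, with a median of 1.07, and 20 of them did so in both kinds of library. Bst2, the tetherin gene, had 46.5, 42.5 and 74.8 RPKM with the inhibitor and 79, 154 and 129.9 with the combination, a difference of 1.13 ± 0.34. Rtp4, an interferon-induced inhibitor of viral replication, had 5.64, 5.61 and 9.15 and 9.96, 16.5 and 15.9 RPKM. Bst2 and Rtp4 were the 2 of 22 members without overlap, near the share of 7.84% among all tested genes. Ifit3 had 64.7, 74.7 and 227 and 118, 571 and 423 RPKM. Irf7, a factor that amplifies the type I response, had 9.52, 9.85 and 44.9 RPKM with the inhibitor and 24.7, 60.4 and 47.8 with the combination. In Ifit3 and Irf7, and in the mean level of the list (2.65, 2.85 and 4.34 with the inhibitor, 3.40, 5.005 and 4.73 with the combination), inhibitor replicate 3 was far above inhibitor replicates 1 and 2.

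Promoters are shown for 2 interferon-responsive genes, 1 from each list. The interferon-stimulated response element core was searched as GAAA, 2 free bases and GAAA, on both strands, in the 300 bases from 250 before to 50 after each RefSeq gene start on GRCm38.p6. It was found in 10 of the 15 type I members with a promoter in the table (66.7%) and in 10 of 12 interferon gamma members (83.3%), against 3.99% of 27025 genes. The gamma-activated site, TTC, 3 free bases and GAA, was found in 3 of 15 and 8 of 12, against 9.55%. Capitals mark the response element core; in Bst2 (chr8:71537423-71537722, minus strand) 2 matches overlap, beginning 130 and 124 bases before the start, and a gamma-activated site overlaps the first. In Gbp5 (chr3:142496684-142496983, plus strand), a guanylate-binding protein gene with 6.49, 10.3 and 32.6 RPKM with the inhibitor and 13.4, 45 and 54.5 with the combination, the match is on the opposite strand and begins 165 bases before the start. A match describes the letters of the window and not a bound site. Both lists were made of genes known to respond to interferon. An excess of matches therefore follows from their membership and does not bear on the difference between the groups.
Bst2: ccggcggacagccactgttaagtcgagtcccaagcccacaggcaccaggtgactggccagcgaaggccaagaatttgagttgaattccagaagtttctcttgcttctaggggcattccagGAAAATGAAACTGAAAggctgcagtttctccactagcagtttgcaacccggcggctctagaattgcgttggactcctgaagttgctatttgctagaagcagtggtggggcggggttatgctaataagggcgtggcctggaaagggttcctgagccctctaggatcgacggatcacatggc
Gbp5: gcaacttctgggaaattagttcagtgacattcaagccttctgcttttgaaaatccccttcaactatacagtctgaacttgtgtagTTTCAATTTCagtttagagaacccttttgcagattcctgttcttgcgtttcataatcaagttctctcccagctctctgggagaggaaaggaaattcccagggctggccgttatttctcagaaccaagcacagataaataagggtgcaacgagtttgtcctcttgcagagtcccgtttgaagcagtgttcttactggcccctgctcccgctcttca

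Class II antigen presentation, which shows peptides to CD4 T cells, stood higher in all 10 tested members with a median of 1.08. Of these, 6 had no overlap between the groups, against 7.84% of all tested genes. H2-Ab1, the beta chain of I-A (chromosome 17, 34263209 to 34269418, plus strand), had 650.0, 918 and 675 RPKM in the inhibitor libraries and 1253, 2068 and 2139.6 in the combination libraries, a difference of 1.26 ± 0.25. Here inhibitor replicate 3 was as low as replicate 1, unlike in the T cell and interferon lists. H2-Eb1 had 550.5, 781 and 346 and 815, 1184 and 1112 RPKM, and Cd74, the invariant chain, 588, 832 and 749.6 and 887, 2022 and 1912 RPKM. H2-Aa, the I-A alpha chain, had 64.1, 99.6 and 56.6 RPKM with the inhibitor and 92.4, 178 and 172 with the combination and overlapped. The peptide-loading genes H2-DMb1 and H2-DMb2 had 41.5, 47.6 and 38.7 and 8, 13.5 and 8.76 RPKM with the inhibitor against 51.6, 86 and 82.3 and 18.3, 36.6 and 31.8 with the combination.

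The promoters of 2 class II genes are printed with their Y box in capitals, the CCAAT element of class II promoters known to bind NF-Y, searched after the values were seen as CTGATTGG on both strands. It was found in 3 of the 7 class II members with a promoter in the table (H2-Aa, H2-Eb1 and H2-Oa) and in 7 of 15 class I members. The share was 4.7% of all 27025 genes and 6.27% of tested genes with a promoter. The Y box was also in 2 of 9 heat shock chaperones, Hspa1a and Hspa1b, which stood lower. Of the interferon lists, 0 of 15 type I and 1 of 12 interferon gamma members held the Y box. It begins 51 bases before the start in H2-Aa (chr17:34287774-34288073, minus strand) and 62 bases before it in H2-Eb1 (chr17:34305617-34305916, plus strand).
H2-Aa: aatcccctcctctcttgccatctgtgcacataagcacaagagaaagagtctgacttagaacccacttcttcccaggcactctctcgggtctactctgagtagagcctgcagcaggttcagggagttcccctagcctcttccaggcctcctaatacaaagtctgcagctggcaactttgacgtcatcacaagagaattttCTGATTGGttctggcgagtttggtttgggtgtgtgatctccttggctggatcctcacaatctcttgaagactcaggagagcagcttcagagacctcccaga
H2-Eb1: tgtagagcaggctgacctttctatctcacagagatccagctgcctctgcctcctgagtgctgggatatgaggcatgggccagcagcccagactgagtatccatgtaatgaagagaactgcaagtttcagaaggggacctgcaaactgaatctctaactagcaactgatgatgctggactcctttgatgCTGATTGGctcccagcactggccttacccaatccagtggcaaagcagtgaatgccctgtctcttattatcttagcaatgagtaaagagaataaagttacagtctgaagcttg

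Class I presentation stood higher in 17 of 17 members, in the muscle-rich and in the muscle-poor libraries alike, with a median of 0.97. The immunoproteasome genes Psmb10 and Psmb9 were the 2 of 17 members without overlap, beside 7.84% of all tested genes. Psmb10 had 10.2, 12.7 and 16.5 RPKM with the inhibitor and 18.9, 34 and 33.8 with the combination. Psmb9 had 6.77, 11.3 and 12.3 and 12.6, 26.3 and 25.5 RPKM, apart by a narrow gap. The non-classical class I gene H2-T23 had 39.3, 60.1 and 77.2 and 74.3, 153 and 150.4 RPKM. Reads of class I genes may be shared between near-identical members.

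Dendritic cell and macrophage genes also stood higher on balance. Clec9a, a marker of cross-presenting dendritic cells, had 0.876, 1.22 and 0.601 RPKM with the inhibitor and 1.52, 4.4 and 4.56 with the combination, and their factor Batf3 2.25, 3.83 and 2.78 and 4.36, 8.4 and 6.91 RPKM. Neither overlapped, and 12 of 13 tested dendritic cell genes stood higher (median 0.84). Lyz2, the lysozyme gene of myeloid cells, had 146, 163 and 219 and 249.5, 701 and 698 RPKM, and C1qa, a complement subunit made by macrophages, 77.3, 84.8 and 98.7 and 109, 232 and 234 RPKM. Of 20 macrophage genes 15 stood higher (median 0.89), and Mrc1, Cd163, Nos2, Marco and Folr2 stood lower.

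**Figure D3:**
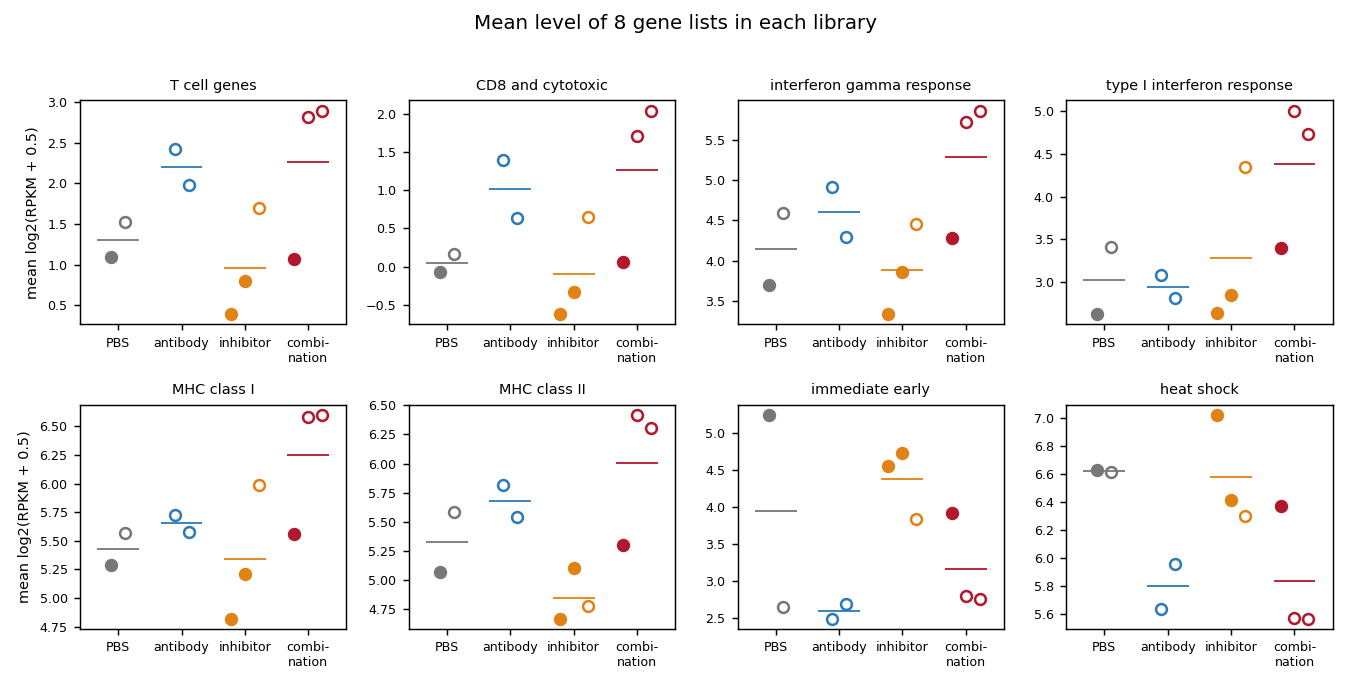
Mean level of 8 gene lists as log2(RPKM + 0.5) in each library, in replicate order; lines are group means and filled points are libraries with more than 1% muscle reads. For the class II list the 3 combination libraries (5.30 to 6.41) lie above the 3 inhibitor libraries (4.67 to 5.10), while for the T cell list combination replicate 1 (1.06) lies below inhibitor replicate 3 (1.69).

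Genes of the cell cycle, the direct field of the inhibitor that both groups received, had list medians over the 6 libraries nearer to that of all genes than the T cell, interferon and antigen presentation lists did. Cdk4 had 18.4, 21.5 and 13.9 RPKM with the inhibitor and 17.4, 15.6 and 13.8 with the combination, Cdk6 1.59, 1.92 and 3.52 and 1.71, 2.97 and 2.81 RPKM, and Rb1 1.69, 1.82 and 3.03 and 1.74, 3.42 and 3.43 RPKM. Ccnd1, the cyclin D1 gene, had 16, 16 and 12 and 14.9, 26.1 and 26.9 RPKM, with the 2 muscle-poor combination libraries above the other 4. A pair of genes for CDK4/6-inhibiting proteins had no overlap, in opposite directions. Cdkn2d, which encodes p19, had 7.38, 5.5 and 6.31 and 3.82, 3.14 and 3.12 RPKM, and Cdkn2a, which encodes p16 and p19Arf, 0.631, 0.406 and 0.534 and 0.721, 1.73 and 1.39 RPKM. That is 1 of 15 tested members each way, where 7.84% of all tested genes lay above without overlap and 3.01% below. DNA replication and E2F target genes stood higher in 21 of 22 members by a median of 0.28, against 0.15 for all genes, and the median was 0.18 without inhibitor replicate 3 and 0.44 without combination replicate 1. Rrm2, a ribonucleotide reductase subunit, had 4.19, 3.17 and 2.68 and 4.4, 4.89 and 5.52 RPKM and Pola1 3.07, 2.06 and 3.26 and 3.6, 6.19 and 5.21 RPKM. These were the 2 of 22 members without overlap, near the share of 7.84% among all tested genes. Mitosis genes had a median of 0.13, near that of all genes, and the proliferation marker Mki67 had 46.6, 32.4 and 38.8 RPKM with the inhibitor and 33, 51 and 51 with the combination. Within the muscle-rich libraries the replication and mitosis medians were -0.15 and -0.17, with 8 of 22 and 4 of 21 members higher, and within the muscle-poor libraries they were 0.68 and 0.28, with 22 of 22 and 18 of 21 higher. With median-ratio and quantile scaling of all libraries the mitosis medians were -0.04 and -0.06 and the CDK4/6 medians -0.04 and -0.03. These lay near the median of all genes under the same scaling, which was -0.03 with quantile scaling.

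Among lists that stood lower, immediate early genes, which respond within minutes to growth factors and stress, had a median of -1.48, with 14 of 16 members lower. Junb had 54.5, 65.2 and 68.6 RPKM in the inhibitor libraries and 23, 14.1 and 16.3 in the combination libraries, a difference of -1.81 ± 0.62, and Dusp1, a MAP kinase phosphatase gene, 11.3, 22.2 and 12.7 and 8.43, 3.29 and 3.28 RPKM. Neither overlapped. Jun had 618, 491 and 132 and 133, 56.5 and 53.5 RPKM and Fos 90, 99.8 and 7.89 and 29.9, 2.71 and 3.11 RPKM, so for both the 2 muscle-rich inhibitor libraries were highest. Of the list, 13 members stood lower in both the muscle-rich and the muscle-poor libraries, as 17.4% of all tested genes did. The list also varied within the PBS group, at 5.23 and 2.64 against 2.48 and 2.68 in the antibody libraries, on the log2 scale.

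Socs3 and Cebpd, induced by STAT3 signalling, were singled out after their values were seen. Socs3, a feedback inhibitor of cytokine receptors (chromosome 11, 117966079 to 117970047, minus strand), had 100.2, 76.9 and 81.3 RPKM with the inhibitor and 22.9, 14.3 and 17.4 with the combination, a difference of -2.23 ± 0.77. Its 3 inhibitor libraries lay close together despite their tissue content, and all were far above the combination libraries. Cebpd, a transcription factor of the acute-phase response, had 26.4, 24.9 and 64.4 and 11.2, 7.58 and 11.3 RPKM, a difference of -1.77 ± 0.49.

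Heat shock chaperones stood lower in 13 of 13 members by a median of -0.37. Hspa1a, the inducible HSP70 gene, had 37.4, 12 and 10.5 RPKM with the inhibitor and 10.4, 1.26 and 1.28 with the combination; combination replicate 1 was level with inhibitor replicate 3, and the 2 other combination libraries were far lower. Its near-identical copy Hspa1b, with which reads may be shared, had 89.4, 32.9 and 25.7 and 27.5, 3.46 and 2.93 RPKM. The constitutive chaperone gene Hspa8 had 843, 629 and 609.9 and 531, 496 and 477 RPKM, a smaller difference of -0.45 ± 0.19. Atf4, the factor of the integrated stress response, had 126, 124 and 129 and 91.9, 91 and 82.9 RPKM, without overlap, and the unfolded protein and integrated stress list had a median of -0.17.

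Hypoxia and glycolysis genes stood lower in 18 of 19 members by a median of -0.51, mostly in the muscle-poor libraries (-0.90, against -0.07 in the muscle-rich ones), and by -0.28 without inhibitor replicate 3. Vegfa, the vascular growth factor gene (chromosome 17, 46016993 to 46032369, minus strand), had 256, 253 and 427 RPKM with the inhibitor and 144, 157 and 208 with the combination, a difference of -0.85 ± 0.24. Egln3, an oxygen-sensing prolyl hydroxylase gene, had 22.4, 20.8 and 29.6 and 16.7, 10.1 and 17.5 RPKM, and the glycolysis gene Pgam1 60.3, 52.3 and 76.1 and 42, 46.8 and 50.4 RPKM. None of these 3 overlapped. Adm, the adrenomedullin gene, had 5.62, 3.73 and 14.6 and 4.34, 0.845 and 2.18 RPKM and overlapped.

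Inflammatory secreted factors rested on 1 library. Cxcl1, a neutrophil chemokine, had 8.68, 6.31 and 518 RPKM in the inhibitor libraries and 2.96, 2.28 and 1.88 in the combination libraries. The groups did not overlap, but inhibitor replicate 3 was far above the other 2 inhibitor libraries. Il6 had 0.152, 0.196 and 20.9 and 0.501, 0.0245 and 0.0227 RPKM, Cxcl2 0.716, 0.576 and 38.4 and 4.58, 0.115 and 0.08 RPKM, Il1b 0.504, 1.69 and 56.9 and 1.28, 2.5 and 2.1 RPKM, and Csf3, the neutrophil growth factor gene, 0.0262, 0.0281 and 44.1 and 1.53, 0 and 0.039 RPKM. In all 4, inhibitor replicate 3 alone was high. The median of the 18 tested members was -0.62 and turned to 0.25 without inhibitor replicate 3, and it was 0.35 within the muscle-rich libraries. Igfbp3, a growth factor binding protein gene, was lower in each combination library without that split, at 15.8, 16.9 and 12.1 and 11.2, 8.92 and 8.49 RPKM. Slfn4, a myeloid gene, was the reverse case: it had 0.457, 0.431 and 10.2 RPKM with the inhibitor and 9.39, 6.69 and 6.51 with the combination, beside 0.281 and 0.538 in PBS and 0.376 and 0.472 in antibody libraries, so inhibitor replicate 3 stood with the combination.

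Other tissue lists varied within both groups, and some single genes stood far higher in combination replicate 1 than in the other 5 libraries. Epcam, an epithelial adhesion gene, had 1.12, 1.4 and 1.57 RPKM with the inhibitor and 27.8, 2.83 and 3.06 with the combination, Actg2, a smooth muscle actin gene, 0.523, 0.765 and 0.446 and 29.6, 0.153 and 1.06 RPKM, and Ltf, the lactoferrin gene, 0, 0 and 0.645 and 63, 0.0172 and 2.05 RPKM. The lists of Epcam and Actg2 did not stand apart to that extent: epithelial and mesothelial genes took 0.117%, 0.131% and 0.0989% of reads with the inhibitor and 0.141%, 0.137% and 0.139% with the combination, and smooth muscle and pericyte genes 0.274%, 0.244% and 0.0339% and 0.378%, 0.043% and 0.0753%. The 8 adipocyte genes all stood lower with the combination by a median of -1.02 (-0.39 without combination replicate 2), with reads of 0.0559%, 0.0229% and 0.0266% in the inhibitor libraries and 0.027%, 0.00359% and 0.0162% in the combination libraries. The 9 pancreas genes all stood higher by a median of 3.33, and 2 of the 9 had no read in combination replicate 1. Mitochondrially encoded genes took 3.84%, 3.19% and 1.15% of reads with the inhibitor and 2.12%, 1.84% and 1.82% with the combination. Splitting the libraries into muscle-rich and muscle-poor did not match their tissue content. Among the muscle-poor libraries the skeletal muscle list still stood higher in 12 of 12 members, by a median of 6.43. Pancreas genes did so in 9 of 9, by 2.435. Among the muscle-rich libraries these medians were -0.03 and -0.10. Beyond that split, the part of these tissues in the immune and stress lists was not tested.

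Taken apart, the muscle-rich and the muscle-poor libraries both gave medians above 0 for the T cell, CD8 and cytotoxic, interferon and antigen presentation lists. The same held for some other immune lists, such as B cell, checkpoint and natural killer genes, and the sizes differed. It did not hold for all. In the muscle-poor libraries the medians were -0.15 for monocyte chemokines, -0.32 for high endothelial venule genes and -0.34 for complement components. They were -0.30 for peritoneal macrophage genes and -2.62 for neutrophil genes and CXCR2 chemokines. Regulatory T cell genes had -0.005 in the muscle-rich libraries. Muscle content was not matched among the muscle-poor libraries, at 0.00153% of reads in inhibitor replicate 3 against 0.186% and 0.706% in combination replicates 2 and 3. In the muscle-rich libraries (combination replicate 1 against inhibitor replicates 1 and 2) the medians were 0.78 for interferon gamma response, 0.68 for type I interferon response, 0.59 for class I, 0.56 for CD8 and cytotoxic, 0.47 for T cell and 0.31 for class II genes. In the muscle-poor libraries (combination replicates 2 and 3 against inhibitor replicate 3) they were 1.35, 0.40, 0.65, 1.34, 1.14 and 1.63 in the same order, beside 0.07 and 0.09 for all tested genes. Class II genes thus differed most in the muscle-poor libraries and had the smallest of these medians in the muscle-rich ones. Leaving out the muscle-rich libraries, limma called 67 genes higher (0.346% of those tested) and 113 lower (0.583%), with a single inhibitor library, whose spread is assumed to be that of the other groups, and 2 residual degrees of freedom. Of the 10 class II genes 7 were called higher, among them H2-Ab1, H2-Aa, H2-Eb1, Cd74 and Ciita, with adjusted p from 0.0231 to 0.0472. Of the 18 inflammatory secreted factors 11 were called lower, with adjusted p from 0.00539 to 0.0398. These calls compare inhibitor replicate 3 with 2 combination libraries, and that library stood apart from the other inhibitor libraries as described for Cxcl1 and Il6. PBS replicate 1, with 1.59% of reads in the skeletal muscle list, was left out of this fit too. The spread in the fit therefore came from combination replicates 2 and 3 and the antibody libraries.

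**Figure D4:**
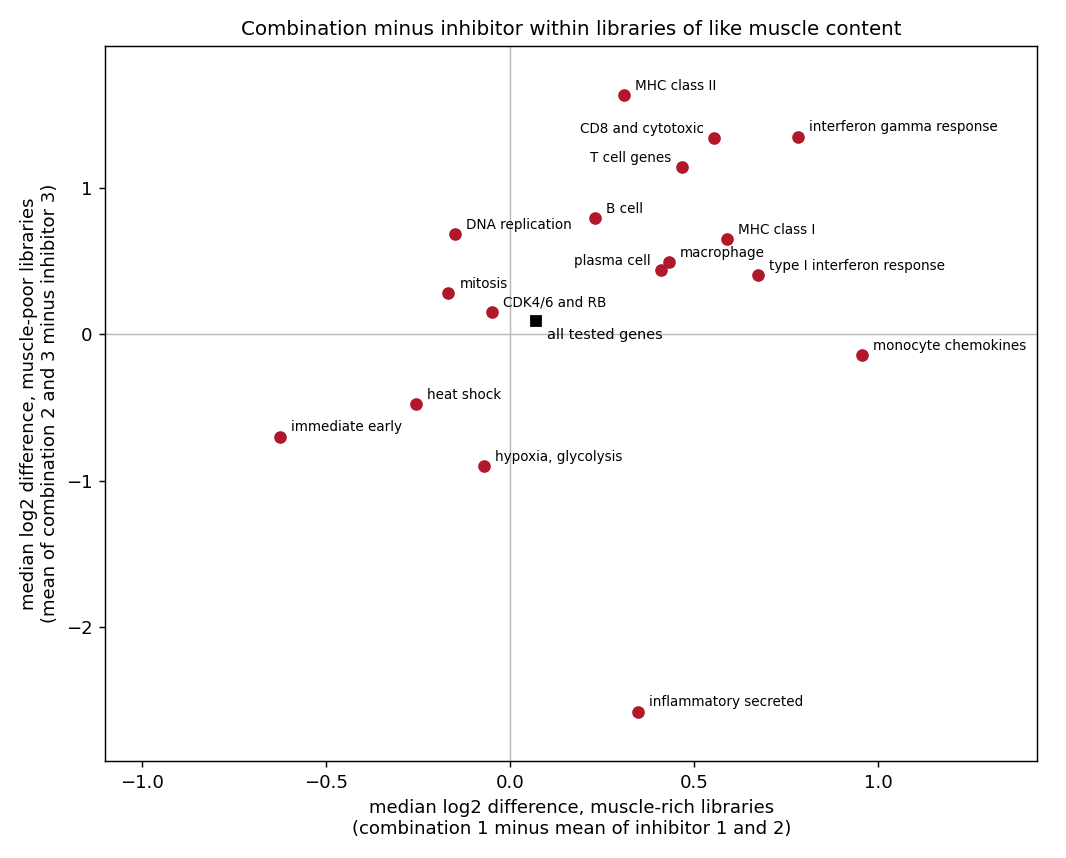
Median log2 difference, combination minus inhibitor, of 17 gene lists within the muscle-rich libraries (horizontal axis) and within the muscle-poor libraries (vertical axis); the square is the median of all tested genes. The interferon, T cell and antigen presentation lists lie above 0 on both axes, immediate early and heat shock genes below 0 on both, and inflammatory secreted factors at 0.35 and -2.58.

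Without the inhibitor, several list medians had the same sign for antibody against PBS; these 4 libraries share none with the comparison above. Antibody minus PBS, the list medians were 1.05 for T cell genes, 0.89 for CD8 and cytotoxic genes, 0.60 for interferon gamma response and 0.34 for class II, and -1.35 for immediate early and -0.60 for heat shock genes, against -0.17 for all tested genes. The immediate early value rests on PBS replicate 1, at a list level of 5.23 and 2.64 in the PBS replicates and 2.48 and 2.68 in the antibody replicates. Tissue content moved with these groups as well: pancreas genes took 0.000975% and 0.00104% of reads in the PBS libraries and 3.38% and 1.3% in the antibody libraries, skeletal muscle genes 1.59% and 0.674% and 0.00208% and 0.585%, and adipocyte genes 0.401% and 0.0308% and 0.00686% and 0.0427%. Their part in the list medians was not tested. Type I interferon response genes had -0.08 there against 1.07 on top of the inhibitor. Bst2 shows this by library, with 33 and 57.1 RPKM in PBS and 52.8 and 35.7 in antibody libraries. Tested as an interaction, the antibody difference with the inhibitor less that without it passed for 0% of genes (limma, smallest adjusted p = 0.777), with 1089 genes at an unadjusted p under 0.05 and 0 calls by voom, so no gene was shown to respond differently. Of the 583 genes with all 3 combination libraries below all 3 inhibitor libraries, 90.2% were also lower with the antibody than with PBS, where 68.7% of all tested genes were. Of the 1519 with all 3 above, 39.6% were higher with the antibody, against 31.3% of all tested genes.

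**Figure D5:**
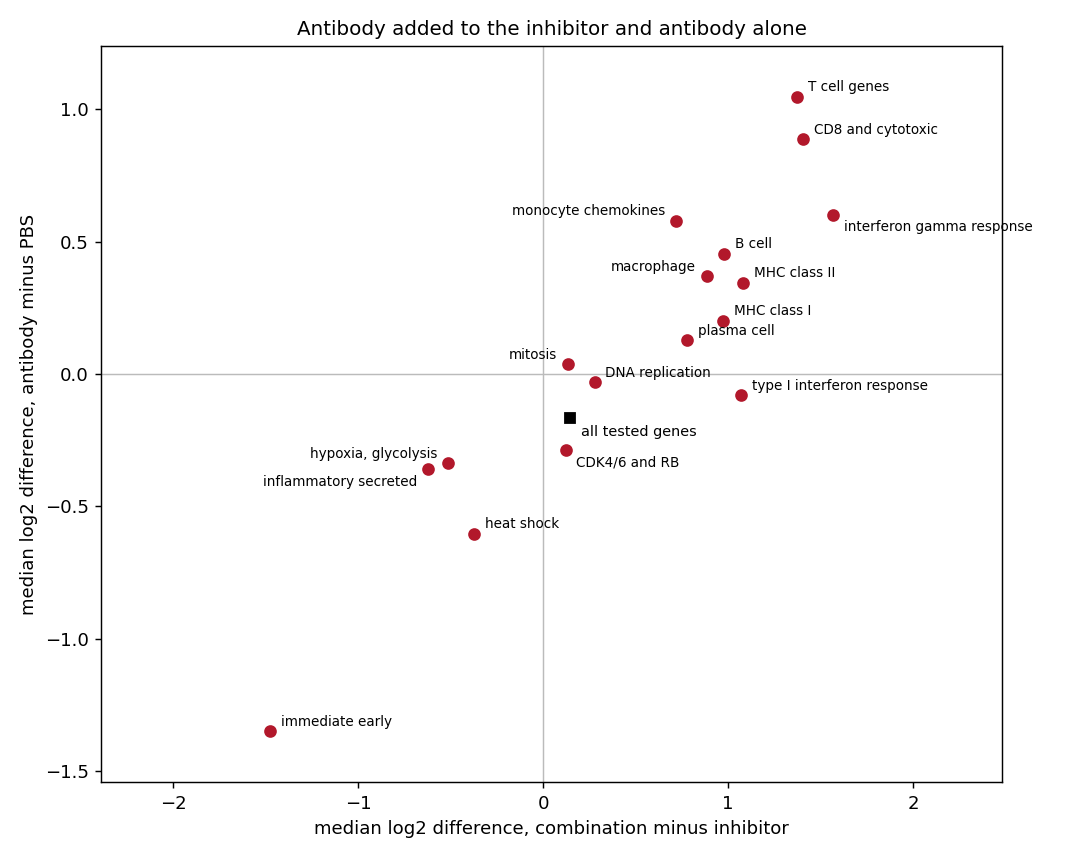
Median log2 difference of 17 gene lists for combination minus inhibitor (horizontal axis, 6 libraries) and antibody minus PBS (vertical axis, 4 other libraries); the square is the median of all tested genes. T cell genes lie at 1.37 and 1.05 and immediate early genes at -1.48 and -1.35, while type I interferon response genes lie at 1.07 and -0.08.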

How the data were processed

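mRNA of mouse ovarian tumours was sequenced as stranded paired-end libraries, per the labels' protocols, which name 2 library kits without saying which made which sample. The authors deposited 1 table of RPKM for 32830 genes in 10 libraries, with each gene's position and length, on GRCm38 (mm10) per the submitters' processing notes. The sources used here name no aligner, counting program or strand setting, so antisense, overlapping and near-identical genes are uncertain. RPKM times length was a whole multiple of 1 read in each library (100% of values, tolerance 1e-06), which gave the total reads.

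A mean for each of the 4 groups was fitted to log2(RPKM + 0.5) of all 10 samples with limma 3.58.1 under R 4.3.3. The fit covered the 19368 genes that reached 0.5 RPKM in at least 2 samples, with a mean-variance trend, robust moderation and Benjamini-Hochberg adjustment at 0.05 (6 residual degrees of freedom). The contrasts were combination minus inhibitor, and that minus (antibody minus PBS). The count test foreseen for a table of counts was not used, since the unit is RPKM. A chi-square test of the recovered reads put every replicate pair beyond sampling noise (23.9 to 532 per gene tested). The fit was also run on simulated reads drawn from a common mean profile without differences in tissue content. That run does not speak for libraries as unlike as these.

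Genes named were, per direction, the 10 of lowest p with at least 1 RPKM in the higher group (5 higher and 8 lower gene models without a standard symbol were passed over), 28 preset genes, and of each of 47 lists up to 4 of lowest p and up to 2 whose groups did not overlap. The comparison, the 47 lists (673 genes, 624 tested) and the preset genes were chosen with earlier results of these data known. Also named after their values were seen were Socs3, Cebpd, Fos, Slfn4, H2-Aa, H2-Eb1, Cd74, Gbp5, Csf3, Il1b, Ccl2, Sprr2f and the lower members listed for the macrophage, checkpoint and lymphotoxin lists. Lists are described by counts and medians, with no test. Promoters came from RefSeq (GRCm38.p6), matched by symbol. Alternatives covered the pseudocount, the filter, scaling, moderation, the samples fitted, a replicate block, muscle content and voom on recovered reads; figures were drawn with matplotlib 3.10.9.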

Additional observations from a re-analysis of the deposited data

How the results depend on the processing

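The count of genes past the threshold for combination against inhibitor stayed at 0 under the other pseudocounts, filters, scalings, moderation, the muscle covariate, the muscle stratum as a block and voom. Leaving out 1 library at a time gave 0 to 1 genes; the 1 was Slfn4, without inhibitor replicate 3 (log2 difference 3.07, adjusted p = 0.0238). Without the muscle-rich libraries 180 genes were called, and in the muscle-rich libraries alone 1, the epithelial gene Sprr2f, which reached 127 RPKM in combination replicate 1 and 0 RPKM in inhibitor replicates 1 and 2. Both leave a group with 1 library, whose spread is assumed to be that of the others. Voom with sample quality weights, added after the data were seen, called 9508 genes (7729 higher, 1779 lower). It gave combination replicate 1 a weight of 0.256 and inhibitor replicate 3 a weight of 0.172. The libraries it weights up are inhibitor replicates 1 and 2 (1.89 and 2.64), both muscle-rich, and combination replicates 2 and 3 (2.15 and 4.25), both muscle-poor. With these weights the skeletal muscle median was -3.69, with 0 of 12 members higher, against 0.695 and 8 of 12 in the limma fit above. The part of muscle content in these calls was not tested. The interaction gave 0 genes under every alternative it was run under. With the replicate number as a block 0 genes passed; the numbers do not pair the samples, since deviations of same-numbered libraries correlated at 0.62, -0.45 and 0.49. Without the muscle-rich libraries Sprr2f and Ccl2 were called lower (-2.93 and -2.32, adjusted p = 0.0482 and 0.0222), against 1.69 and 0.14 with all libraries; no other named gene passed the threshold with the opposite sign, and 60 of 231 changed sign below the threshold under at least 1 alternative. List medians of the T cell, CD8, interferon, class I, class II, immediate early, heat shock and hypoxia lists kept their sign under all 27 settings. Leaving out 1 library moved the T cell median from 1.37 to between 0.995 and 1.99, the higher value without combination replicate 1, and the type I interferon median from 1.07 to between 0.76 and 1.57, the higher value without inhibitor replicate 3. With libraries at 25188785 reads or more, depth did not limit the genes shown in detail except those listed near 0 RPKM, such as Ms4a1 and Ifng.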
